A study of Mus musculus with 12 samples.

Results

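A set of 10 genes of necroptosis, the inflammasome and pyroptosis was followed in mouse kidney: Ripk1, Ripk3, Mlkl, Casp8, Nlrp3, Pycard, Casp1, Casp4, Gsdmd and Casp12. They were chosen by name, as the rows of the deposited expression table that carry these symbols, and all 10 were found among 43346 listed genes. The series holds 12 bulk RNA-seq libraries of whole kidney, 6 from sham-treated mice and 6 from mice with HP-AKI, all taken at day 1. The labels do not spell out HP-AKI, which in this field stands for heme protein-induced acute kidney injury, and the agent that induced it, the sham procedure, strain, sex and age are not given in the sources used here. The libraries keep their deposited numbers, sham 1 to sham 6 and HP-AKI 7, 8, 9, 11, 12 and 13. Whether each library stands for its own animal is not stated, and every p-value is therefore about library-to-library spread, which may be technical.

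Necroptosis and pyroptosis are forms of regulated cell death that end with holes in the plasma membrane and the release of inflammatory contents. In necroptosis, death receptors act through the kinase RIPK1 to engage the kinase RIPK3, which phosphorylates the membrane-disrupting pseudokinase MLKL, and caspase-8 holds this branch in check. In pyroptosis, a sensor such as NLRP3 gathers the adaptor ASC (encoded by Pycard) and caspase-1, or cytosolic lipopolysaccharide engages caspase-11 (encoded by Casp4), and these caspases cut gasdermin D into a pore-forming fragment. Heme and damaged tubules are studied as triggers of both routes in the kidney. The proteins are switched on by cleavage, phosphorylation and assembly, which RNA counts do not measure.

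The deposited counts summed to 35201197 to 41951129 per sham library and 31624522 to 40630917 per HP-AKI library. Levels are given as CPM, counts scaled to a common library total, after TMM scaling, which corrects for differences in library composition, and changes as edgeR log2 fold changes of HP-AKI over sham with their SE and a Benjamini-Hochberg adjusted p over the 17470 genes tested. A change passed the test at an adjusted p of at most 0.05. Kidney tubule markers fell in 9 of 12 cases and rose in 2 (Umod and Pax8), and their summed level was 51400 to 74823 CPM in sham and 28358 to 34069 CPM in HP-AKI. Most of that sum was Kap, at 43197 CPM in sham and 23215 CPM in HP-AKI (1.86-fold lower), while the proximal tubule receptor genes Lrp2 and Cubn were 7.52-fold and 9.40-fold lower. In bulk tissue, fewer cells of a type and less RNA per cell cannot be told apart.

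Of the 10 genes, 5 (Ripk3, Mlkl, Casp4, Nlrp3 and Casp8) rose in HP-AKI, and 0 fell. Over all genes tested, 37.7% rose and 35.2% fell by the same rule, so 5 of 10 higher was not far from the background. At an additional fold change of at least 2, 4 of the 10 rose (all of the 5 but Casp8), against 16.1% of all genes tested. In 4 of the 10 (all of the 5 but Nlrp3), every HP-AKI library lay above every sham library, against 26.7% of all genes tested. The median log2 fold change was 0.34 over the 10 genes and 0.04 over all genes tested. The count of 0 genes lower was the same at an unadjusted p under 0.05 in edgeR, and at the adjusted threshold in DESeq2 and limma-voom. It became 2 (Gsdmd at -0.38, adjusted p = 0.0231, and Pycard at -0.27, adjusted p = 0.0473, edgeR) when sham 1, sham 2 and HP-AKI 8, placed apart from the rest in an earlier analysis of these data, were left out together.

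**Figure D1:**
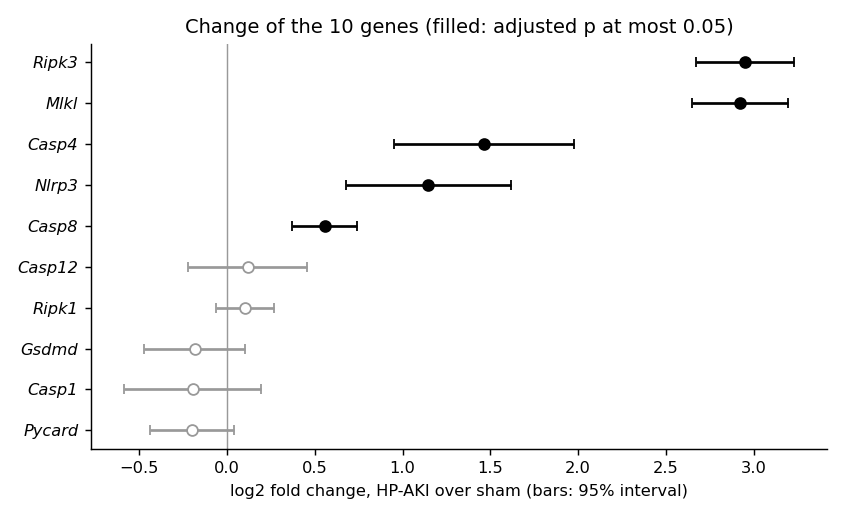
Log2 fold change of HP-AKI over sham for each of the 10 genes (horizontal axis), with bars for the 95% interval from edgeR on 6 libraries a group; filled points passed an adjusted p of 0.05. Ripk3 and Mlkl stand at 2.95 and 2.92, Casp4, Nlrp3 and Casp8 between 1.46 and 0.56, and the other 5 genes have bars that cross 0.

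Of the necroptosis genes, Ripk3 and Mlkl rose steeply, Casp8 rose by a smaller factor, and Ripk1, the most upstream, did not pass the test. Ripk3 (chromosome 14, 55784996-55788857, minus strand, GRCm38 as deposited), the kinase that commits a cell to necroptosis, had a lowest, median and highest level of 0.70, 0.84 and 1.18 CPM in sham. In HP-AKI these were 5.91, 6.93 and 7.68 CPM. Sham 5 was the highest sham library and HP-AKI 9 the lowest HP-AKI library, and the groups were far apart. Ripk3 rose 7.73-fold (log2 fold change 2.95 ± 0.14 SE, n = 6 a group, edgeR, adjusted p = 9.76e-11). It rested on 23 to 44 counts per sham library and 220 to 316 per HP-AKI library.

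Mlkl (chromosome 8, 111311797-111338177, minus strand), the executioner that RIPK3 phosphorylates, had a lowest, median and highest level of 2.05, 2.61 and 2.76 CPM in sham and of 14.9, 18.0 and 24.1 CPM in HP-AKI. The sham libraries were close together, while HP-AKI 8 and HP-AKI 9, at 23.1 and 24.1 CPM, stood above the other 4 HP-AKI libraries, and the groups did not overlap. Mlkl rose 7.59-fold (2.92 ± 0.14 SE on the log2 scale, n = 6 a group, edgeR, adjusted p = 8.72e-11). Only 2.84% of all genes tested had a larger rise than Ripk3 and 2.92% a larger rise than Mlkl. Within the libraries, the ratio of Mlkl to Ripk3 per kilobase was 2.51 ± 0.471 (SD, n = 6) in sham and 2.43 ± 0.639 (SD, n = 6) in HP-AKI. The pair thus changed by nearly the same factor. In sham, both genes were highest in sham 5. In HP-AKI the orders differed: HP-AKI 9, the highest for Mlkl, was the lowest for Ripk3.

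Ripk1 (chromosome 13, 34002363-34035170, plus strand), the kinase upstream of Ripk3 that also serves survival signalling, had a lowest, median and highest level of 53.3, 56.6 and 67.4 CPM in sham and of 53.0, 63.4 and 70.5 CPM in HP-AKI. The ranges overlapped almost entirely, with HP-AKI 8 alone above the highest sham library. The log2 fold change was 0.10 ± 0.08 SE (edgeR, adjusted p = 0.282), with a 95% interval from -0.06 to 0.27. With scaling by library size only, which moved the median of all genes from 0.04 to 0.16, Ripk1 passed at 0.23 (edgeR, adjusted p = 0.0133). The ratio of Ripk3 to Ripk1 per kilobase was 0.0478 ± 0.0127 (SD, n = 6) in sham and 0.344 ± 0.0602 (SD, n = 6) in HP-AKI, 7.31-fold higher, with every HP-AKI library above every sham library. This was 1 of 3 ratios tested, all chosen after the values were seen. The ratio of Ripk3 to Ripk1 gave p = 0.00216 (two-sided exact permutation test, adjusted 0.00325), the smallest p that 6 against 6 allows. Ripk3 alone already separated the groups, so that p is not independent support. The ratio of Mlkl to Ripk3 gave p = 0.727 (two-sided exact permutation test, adjusted 0.727). Counts for Ripk1 may include reads of neighbours: 462 of its 6423 stretches of 50 bases also occur in the pseudogene Gm17084, and 241 exonic bases are shared with Serpinb6a on the opposite strand.

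Casp8 (chromosome 1, 58795374-58847503, plus strand), the protease that starts death-receptor apoptosis and cleaves RIPK1 and RIPK3, had a lowest, median and highest level of 39.4, 43.8 and 51.5 CPM in sham and of 55.5, 65.4 and 75.8 CPM in HP-AKI. The highest sham library, sham 2, lay just under the lowest HP-AKI library, HP-AKI 13. The rise was 1.47-fold (0.56 ± 0.10 SE on the log2 scale, edgeR, adjusted p = 8.39e-05). It was the smallest of the 5 that passed the test. Of the 2536 stretches of 50 bases in Casp8, 128 also occur in Gm20257, whose reads may be counted with it.

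**Figure D2:**
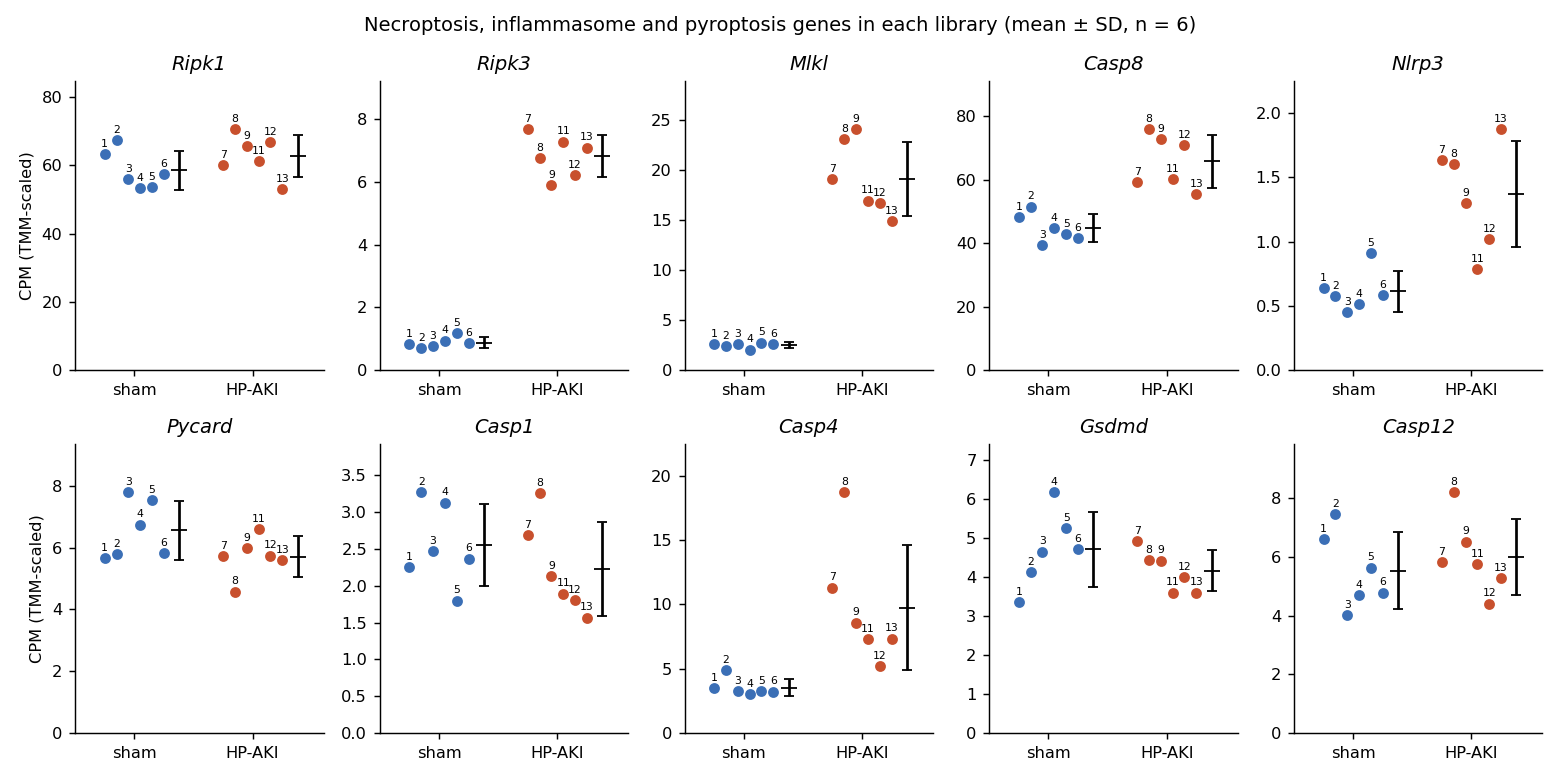
TMM-scaled CPM of each gene in each library (vertical axes start at 0), sham in blue and HP-AKI in orange, with the library number beside each point and the mean ± SD of 6 libraries in black. The groups are apart for Ripk3, Mlkl, Casp8 and Casp4, HP-AKI 11 falls within the sham range for Nlrp3, and the groups overlap for Ripk1, Pycard, Casp1, Gsdmd and Casp12.

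Of the inflammasome core, the sensor rose while the adaptor and the protease did not pass the test. Nlrp3 (chromosome 11, 59541568-59566956, plus strand), the sensor of membrane damage and ion efflux, had a lowest, median and highest level of 0.451, 0.581 and 0.912 CPM in sham and of 0.784, 1.45 and 1.87 CPM in HP-AKI. The overlap came from HP-AKI 11, which lay below sham 5, and the other 5 HP-AKI libraries were above every sham library. Nlrp3 rose 2.22-fold (1.15 ± 0.24 SE on the log2 scale, edgeR, adjusted p = 5.26e-04). The gene was scarce, with 17 to 34 counts per sham library and 34 to 61 per HP-AKI library.

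Pycard (chromosome 7, 127992103-127993867, minus strand), the ASC adaptor, had a lowest, median and highest level of 5.66, 6.28 and 7.80 CPM in sham and of 4.57, 5.73 and 6.60 CPM in HP-AKI. Its log2 fold change was -0.20 ± 0.12 SE (edgeR, adjusted p = 0.151), with a 95% interval from -0.44 to 0.04. It shares 485 exonic bases with Gm45205 on the opposite strand, whose reads cannot be told apart without strand. Casp1 (chromosome 9, 5298517-5307265, plus strand), the protease that matures interleukin-1 beta and interleukin-18, had a lowest, median and highest level of 1.80, 2.42 and 3.27 CPM in sham and of 1.57, 2.01 and 3.26 CPM in HP-AKI. Sham 2 and HP-AKI 8 were almost level at the top of their groups. The log2 fold change of Casp1 was -0.20 ± 0.20 SE (edgeR, adjusted p = 0.385), with a 95% interval from -0.58 to 0.19.

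The pyroptosis genes behaved unequally as well. Casp4 (chromosome 9, 5308828-5336783, plus strand), which encodes the lipopolysaccharide-sensing caspase-11 of the mouse, had a lowest, median and highest level of 3.05, 3.26 and 4.91 CPM in sham and of 5.17, 7.96 and 18.8 CPM in HP-AKI. Sham 2 stood above the other sham libraries and HP-AKI 8 far above the other HP-AKI libraries, yet the groups did not overlap. Casp4 rose 2.76-fold (1.46 ± 0.26 SE on the log2 scale, edgeR, adjusted p = 1.21e-04). Without HP-AKI 8 the log2 fold change was 1.15 (edgeR, adjusted p = 5.20e-05). Casp4 had the widest spread of the 10 genes within HP-AKI, with a coefficient of variation of 49.8%, against 9.80% for Ripk3.

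Gsdmd (chromosome 15, 75862339-75867404, plus strand), the pore-forming substrate of both caspases, had a lowest, median and highest level of 3.35, 4.68 and 6.18 CPM in sham and of 3.59, 4.20 and 4.91 CPM in HP-AKI. Its HP-AKI range lay inside its sham range. The log2 fold change was -0.18 ± 0.15 SE (edgeR, adjusted p = 0.272), with a 95% interval from -0.47 to 0.10. Casp12 (chromosome 9, 5345430-5373032, plus strand), a caspase linked to endoplasmic reticulum stress, had a lowest, median and highest level of 4.01, 5.21 and 7.46 CPM in sham and of 4.41, 5.78 and 8.21 CPM in HP-AKI. The groups overlapped, and HP-AKI 8 alone exceeded the highest sham library. Its log2 fold change was 0.12 ± 0.17 SE (edgeR, adjusted p = 0.547), and it was -0.01 without HP-AKI 8.

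Casp1, Casp4 and Casp12 lie in this order on the plus strand of chromosome 9, and within this cluster only Casp4 passed the test. The ratio of Casp4 to Casp1 per kilobase, the other of the 3 ratios, was 0.573 ± 0.114 (SD, n = 6) in sham and 1.71 ± 0.386 (SD, n = 6) in HP-AKI, 2.97-fold higher. Every HP-AKI ratio, the lowest at 1.15, was above every sham ratio, the highest at 0.735 (two-sided exact permutation test, p = 0.00216, adjusted 0.00325). This ratio too was chosen after the values were seen. Casp4 alone already separated the groups, so that p is not independent support. All 3 genes were highest in sham 2 among the sham libraries and in HP-AKI 8 among the HP-AKI libraries, and these 2 libraries were also highest for Ripk1 and Casp8. The longest transcripts of Casp1, Casp4 and Casp12 had GC contents of 41.2%, 38.1% and 37.3%, against a median of 49.5% over the genes tested. The part of base composition in the values of these 2 libraries was not tested.

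Promoters are shown for Ripk3 and Mlkl, which rose by nearly the same factor, and for the neighbours Casp1 and Casp4, which did not move together. RefSeq windows (GRCm38.p6) were found for 9 of the 10 genes. The bases before the start site and outside the annotated gene are printed 5′ to 3′ on the gene's strand in lower case, with matches to the searched motifs in capitals. They span chr14:55788866-55789107 for Ripk3, chr8:111338206-111338455 for Mlkl, chr9:5298267-5298516 for Casp1 and chr9:5308599-5308827 for Casp4.
Ripk3: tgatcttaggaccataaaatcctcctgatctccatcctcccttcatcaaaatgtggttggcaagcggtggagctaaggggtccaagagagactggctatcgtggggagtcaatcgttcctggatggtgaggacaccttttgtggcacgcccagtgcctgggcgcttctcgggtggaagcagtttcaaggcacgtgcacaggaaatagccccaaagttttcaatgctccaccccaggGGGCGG
Mlkl: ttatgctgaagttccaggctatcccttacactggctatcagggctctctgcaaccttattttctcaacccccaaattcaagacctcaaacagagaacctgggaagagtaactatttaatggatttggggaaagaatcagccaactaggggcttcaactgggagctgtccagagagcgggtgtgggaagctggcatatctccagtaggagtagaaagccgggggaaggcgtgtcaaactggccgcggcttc
Casp1: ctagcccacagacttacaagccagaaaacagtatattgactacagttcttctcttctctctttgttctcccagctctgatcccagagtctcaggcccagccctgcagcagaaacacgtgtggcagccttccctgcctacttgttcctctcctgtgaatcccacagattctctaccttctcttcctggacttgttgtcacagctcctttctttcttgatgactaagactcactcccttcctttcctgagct
Casp4: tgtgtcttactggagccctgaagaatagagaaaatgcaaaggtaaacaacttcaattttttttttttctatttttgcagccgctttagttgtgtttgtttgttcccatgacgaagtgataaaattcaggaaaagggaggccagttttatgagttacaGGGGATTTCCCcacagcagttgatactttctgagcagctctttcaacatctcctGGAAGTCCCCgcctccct
The 5 motifs searched on both strands in the 250 bases before each start were the ISRE as GAAANNGAAA, AP-1 as TGANTCA, GAS as TTCNNNGAA, the GC box as GGGCGG and the NF-kB consensus by name. In Casp4 the capitals are matches to the NF-kB consensus, 2 overlapping ones in the first run, from -93 to -83, and 1 in the second, from -39 to -30, counted from the RefSeq start. Ripk3 held 1 GC box, from -14 to -9, and Mlkl and Casp1 held no match to any of the 5. Over 32536 windows of the same length, 7.28% held the NF-kB consensus, 33% the GC box, 7.04% GAS, 6.73% AP-1 and 2.98% the ISRE. A match describes the letters in the window and not a bound site.

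Levels were compared between genes only per kilobase of the deposited gene length. In sham the order was Casp8 (15.5 CPM per kilobase), Ripk1 (9.53), Pycard (4.67), Gsdmd (2.65), Casp1 (1.70), Casp12 (1.44), Mlkl (1.09), Casp4 (0.952), Ripk3 (0.447) and Nlrp3 (0.151). Neighbours from Gsdmd down to Casp4 overlapped in their ranges over 6 libraries, and the other neighbours did not. In HP-AKI Mlkl stood in the third place at 8.30 CPM per kilobase, with a range that overlapped that of Ripk1 (10.2) and lay above that of Pycard (4.06). Ripk3 stood in the fifth place at 3.48 and Casp4 in the sixth at 2.63 CPM per kilobase, each with a range that overlapped its neighbours'. Casp8 (22.7 CPM per kilobase) stayed at the top and Nlrp3 (0.337) at the bottom. In sham, Ripk3 and Mlkl were thus well below Ripk1 and Casp8 per kilobase, and in HP-AKI only Mlkl reached the range of Ripk1.

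**Figure D3:**
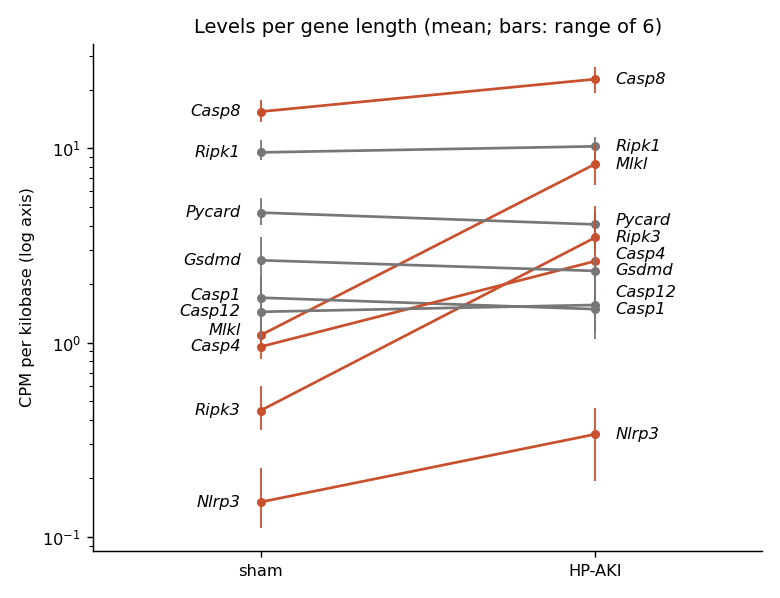
Mean CPM per kilobase of gene length on a log axis for the 10 genes in sham and HP-AKI, with bars for the range of 6 libraries; orange marks the 5 genes that passed the test. Mlkl climbed from 1.09 to 8.30 and Ripk3 from 0.447 to 3.48, crossing Gsdmd, Casp1 and Casp12, whose lines stay nearly level.

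The rest of the machinery was taken from 7 lists of genes by role, 105 genes in all that were matched and are not among the 10. Of the 96 that could be tested, 51 rose, 16 fell and 29 did not pass the test, against 37.7% and 35.2% over all genes. Of the 96, 24 rose at least 2-fold, against 16.1% over all genes.

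Upstream of necroptosis, 16 of 24 genes of the death receptors and of RIPK1 control rose and 2 fell, against 37.7% and 35.2% over all genes. Their median log2 fold change was 0.47. Of the rises, that of Traf2 (0.40, edgeR, adjusted p = 0.0461), picked out after its values were seen, was lost in 12 of 20 alternative analyses. Tnfrsf1a, the main tumor necrosis factor receptor, went from 37.7 ± 6.49 to 119.5 ± 14.4 CPM (SD, n = 6 each; 1.67 on the log2 scale, edgeR, adjusted p = 7.92e-09). Tnfrsf10b, a TRAIL receptor, rose by 1.75 on the log2 scale (edgeR, adjusted p = 6.57e-10). Birc3, a ubiquitin ligase for RIPK1, rose by 1.99 (edgeR, adjusted p = 2.36e-09) and Tnfaip3, which encodes the ubiquitin-editing protein A20, by 1.71 (edgeR, adjusted p = 2.39e-06). In all 4 genes every HP-AKI library lay above every sham library, but 3 of them were named for the largest change. Over the list this held for 12 of 24 genes, against 26.7% of all genes tested. The 2 genes that fell were Fadd, the adaptor that links death receptors to caspase-8, at -0.66 (edgeR, adjusted p = 2.03e-05), and Ikbke, which encodes a kinase that restrains RIPK1, at -0.75 (edgeR, adjusted p = 4.59e-05). Zbp1, the nucleic acid sensor that can engage RIPK3 without death receptors, was singled out after its values were seen: it went from 2.78 ± 0.667 to 2.02 ± 0.560 CPM (-0.46 on the log2 scale, edgeR, adjusted p = 0.0548) and passed the test in 8 of 20 alternative analyses, among them those without sham 1, sham 3 or HP-AKI 12.

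On the priming side, 8 of 12 receptors and adaptors that switch on inflammasome genes rose and none passed the test as lower. Over all genes 37.7% rose and 35.2% fell. The median of the 12 was 0.58. Nod1, a sensor of bacterial cell walls, singled out after its values were seen, stood at -0.28 (edgeR, adjusted p = 0.0517) and passed as lower in 9 of 20 alternative analyses, among them DESeq2 and those without sham 1, sham 2 or HP-AKI 13. Cd14, the lipopolysaccharide co-receptor, went from 3.35 ± 0.872 to 39.5 ± 13.2 CPM (SD, n = 6 each; 3.55 on the log2 scale, edgeR, adjusted p = 1.89e-09). Lbp, which hands lipopolysaccharide to CD14, rose by 1.52 (edgeR, adjusted p = 2.23e-09) and Myd88, the adaptor of the Toll-like receptors, by 1.26 (edgeR, adjusted p = 1.21e-08). Irak1, the most abundant of this list per kilobase, stood at 0.12 (edgeR, adjusted p = 0.0805) and passed with scaling by library size only (0.24, adjusted p = 0.00153).

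Of the sensors and licensing factors, 7 of 22 tested rose and 7 fell, near the 37.7% and 35.2% over all genes, with a median of -0.06. Of the rises, that of Aim2 (0.40, edgeR, adjusted p = 0.0466), picked out after its values were seen, was lost in 12 of 20 alternative analyses. Nlrp6, a sensor of epithelia, had the steepest fall, from 119.5 ± 15.6 to 14.7 ± 2.88 CPM (SD, n = 6 each; -3.03 on the log2 scale, edgeR, adjusted p = 4.44e-11). This fall, 8.15-fold, was close in size to the rises of Ripk3 and Mlkl. Mefv, which encodes pyrin, rose by 2.18 (edgeR, adjusted p = 5.24e-04) from a low level of 0.164 to 0.762 CPM, with 5 of 6 HP-AKI libraries above all sham libraries. Panx1, a channel for ATP release, rose by 1.71 (edgeR, adjusted p = 1.10e-06), and Txnip, reported to bind NLRP3 under oxidative stress, rose by 1.52 (edgeR, adjusted p = 2.44e-08) to 1160 ± 141 CPM. The list also held 6 tested interferon-inducible GTPases, a family with members that promote and members that restrain the caspase-11 pathway, and they were picked out after their values were seen. Gbp5 fell by 1.46 and Irgm2 by 1.37 on the log2 scale (edgeR, adjusted p = 1.26e-04 and 5.54e-07), and Gbp3 and Gbp7 fell by 0.60 and 0.59 (edgeR, adjusted p = 0.00225 and 6.98e-05). Irgm1 stood at -0.26 (edgeR, adjusted p = 0.0336), a call lost when sham 2, HP-AKI 11, sham 5 or HP-AKI 13 was left out singly and with library size only (-0.24 to -0.13). Gbp2 stood at -0.06 (edgeR, adjusted p = 0.766).

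The list of other gasdermins and of the ninjurins held 11 genes, of which 6 could be tested. Of these 6, 2 rose and 2 fell, near the 37.7% and 35.2% over all genes. Gsdma had 1 count over the 6 sham libraries and 569 over the 6 HP-AKI libraries, a ratio of 564 per unit of depth (95% exact binomial interval 101 to 22329, counting error only). It reached 2.57 ± 0.661 CPM (SD, n = 6) in HP-AKI, while its paralogs Gsdma2 and Gsdma3 had 2 and 4 counts over those libraries, and reads could be split between such paralogs. Ninj1, whose protein ruptures the membrane after pore formation, rose by 0.55 on the log2 scale (edgeR, adjusted p = 0.0274). That call was lost without sham 1, sham 2, HP-AKI 7, HP-AKI 11, HP-AKI 12 or HP-AKI 13, each left out singly (0.39 to 0.52). Gsdme, another gasdermin, fell by 0.78 (edgeR, adjusted p = 2.34e-06) from 10.2 ± 0.923 to 5.94 ± 0.334 CPM, and Gsdmc3 fell by 1.14 (edgeR, adjusted p = 4.55e-04).

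The interleukin-1 family list, which held cytokines, receptors, inhibitors and Hmgb1, rose in 7 of 10 tested cases and fell in none. Over all genes 37.7% rose and 35.2% fell. The median of the 10 was 0.68. Il1rn, the interleukin-1 receptor antagonist, went from 0.170 ± 0.105 to 8.63 ± 3.79 CPM (5.61 on the log2 scale, edgeR, adjusted p = 3.95e-09). Il1r2, the decoy receptor, went from 0.354 ± 0.103 to 12.3 ± 6.52 CPM (5.11 on the log2 scale, edgeR, adjusted p = 7.90e-09). Il1r1, the signalling receptor, rose by 1.59 (edgeR, adjusted p = 6.84e-08). These genes were named for the largest changes of the list. The caspase-1 substrates themselves were picked out after their values were seen. Il1b rose by 1.46 (edgeR, adjusted p = 6.60e-04) with 5 of 6 HP-AKI libraries above all sham libraries. Il18 stood at 0.36 (edgeR, adjusted p = 0.0368), a call lost in 11 of 20 alternative analyses (0.28 to 0.36), among them those without sham 1, 3, 4, 5 or 6 or HP-AKI 7, 9, 11 or 13. Hmgb1, the most abundant of the list per kilobase, stood at 0.05 (edgeR, adjusted p = 0.636). Among the HP-AKI libraries, Il1rn, Il1r2, Il1r1 and Il1b were all highest in HP-AKI 8 (15.6, 23.9, 65.7 and 8.04 CPM), the library with the highest sum of neutrophil markers. All were lowest in HP-AKI 12, whereas the neutrophil sum was lowest in HP-AKI 11 (21.5 CPM, against 26.8 CPM in HP-AKI 12). Without HP-AKI 8 the log2 fold changes of Il1rn and Il1r2 were 5.34 and 4.79. The part of neutrophils in these changes was not tested.

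Of 8 other caspases and apoptosome genes tested, 2 rose and 2 fell, shares below the 37.7% and 35.2% over all genes. Apaf1, the scaffold of the apoptosome, rose by 1.34 (edgeR, adjusted p = 3.58e-08), and Diablo, an antagonist of caspase inhibitors, by 0.23 (edgeR, adjusted p = 0.00159). Cycs, the cytochrome c that activates APAF1, fell by 0.67 (edgeR, adjusted p = 5.57e-06) and Casp6, an executioner caspase, by 0.30 (edgeR, adjusted p = 0.00676). Casp6 did not pass with scaling by library size only (-0.18).

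The membrane repair list held ESCRT-III genes, whose products pinch off membrane damaged by MLKL or gasdermin D, and genes of partner proteins. Of 14 tested, 9 rose and 3 fell, against 37.7% and 35.2% over all genes, with a median of 0.62. Of the rises, Vps4a, Vps4b, Pdcd6 and Pdcd6ip are partners and not ESCRT-III subunits, and the 3 falls were all of Chmp genes. Chmp4c rose by 1.57 (edgeR, adjusted p = 8.15e-10), Chmp4b by 1.22 (edgeR, adjusted p = 6.79e-10), Chmp2b by 1.03 (edgeR, adjusted p = 1.94e-07) and Chmp2a by 0.83 (edgeR, adjusted p = 8.34e-07). These subunits build and cap the ESCRT-III filament. Chmp4b went from 68.5 ± 4.38 to 159.6 ± 11.5 CPM (SD, n = 6 each), with no overlap between groups. Chmp5 fell by 0.60 (edgeR, adjusted p = 8.94e-07), and Chmp3 and Chmp7 fell by 0.24 each (edgeR, adjusted p = 0.00526 and 0.00384). Chmp3 and Chmp7 did not pass with scaling by library size only (-0.11 and -0.12).

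**Figure D4:**
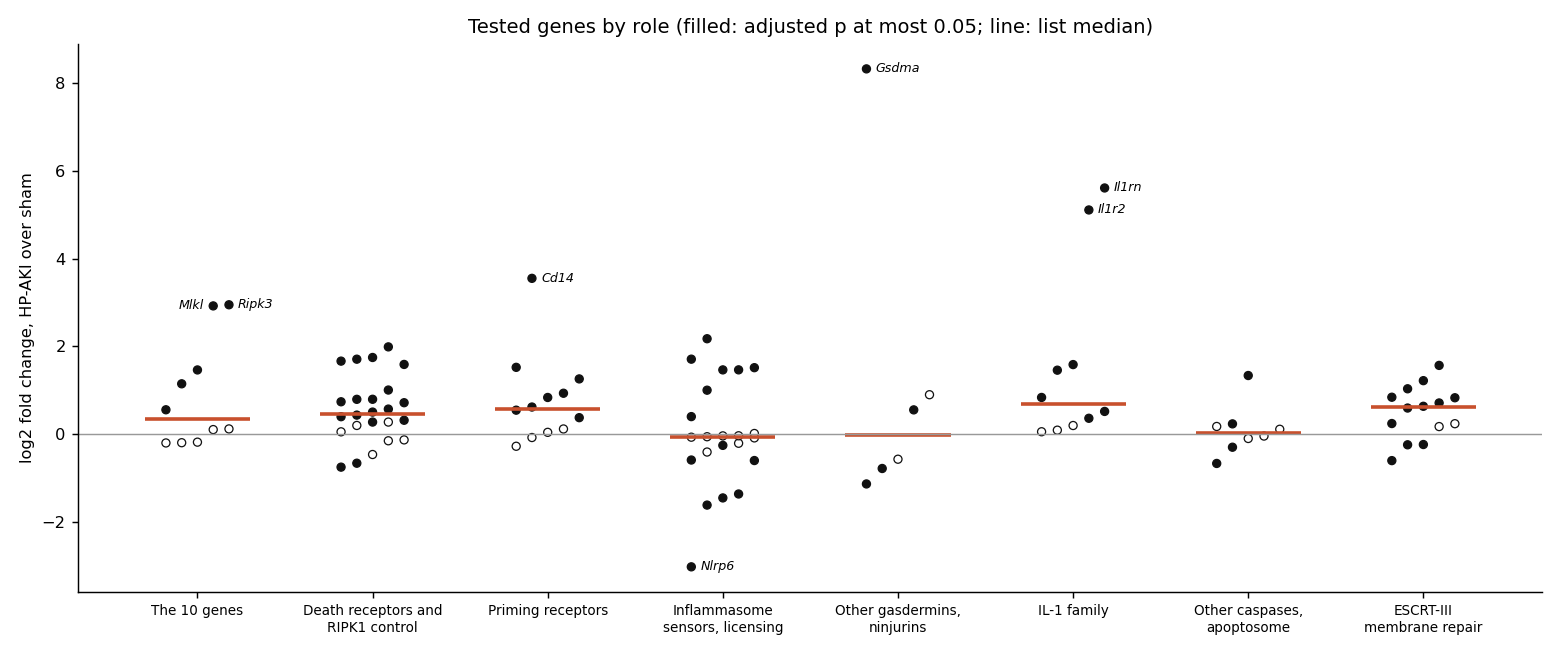
Log2 fold change of HP-AKI over sham for each tested gene, by role; filled points passed an adjusted p of 0.05 and the orange line is the list's median. The 10 genes have a median of 0.34, the sensors run from Nlrp6 at -3.03 to Mefv at 2.18, and Il1rn and Il1r2 stand at 5.61 and 5.11; the value of Gsdma rests on 1 sham count.

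Blood cell markers moved with the injury, and several of the 10 genes are also expressed by such cells. Of 12 neutrophil markers, 8 could be tested, of which 7 rose and 1 (Ltf) fell, and none was at 0 in all libraries. Their summed level was 2.73 to 4.71 CPM in sham and 21.5 to 171.7 CPM in HP-AKI, highest in HP-AKI 8, which was also the highest library for Casp4. HP-AKI 11 and HP-AKI 12, the lowest HP-AKI libraries in this sum at 21.5 and 26.8 CPM, were also the lowest HP-AKI libraries for Nlrp3. At the other end the orders differed: Nlrp3 was highest in HP-AKI 13 and HP-AKI 7, at 1.87 and 1.64 CPM, and stood at 1.602 CPM in HP-AKI 8. HP-AKI 8 was also the highest HP-AKI library for Casp8, which rose, and for Casp1, Casp12 and Ripk1, which did not pass the test. Ripk3 did not follow this order, since HP-AKI 8, at 6.76 CPM, was in the middle of its group. Of 12 macrophage and monocyte markers 3 rose (Cd68, Itgam and Ly6c2) and 5 fell (Adgre1, Csf1r, Lyz2, Ccr2 and Cx3cr1), and the sums overlapped, at 128.4 to 174.2 CPM in sham and 116.9 to 160.2 CPM in HP-AKI. Lymphocyte markers fell in 6 of 8 tested cases, from a sum of 8.61 to 11.03 CPM in sham to 2.49 to 3.19 CPM in HP-AKI. Podocyte and endothelial markers rose in 5 of 8 cases and fell in 2. For all of these marker counts, the shares over all genes were 37.7% higher and 35.2% lower. The part of these cells in the changes of the 10 genes was not tested.

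**Figure D5:**
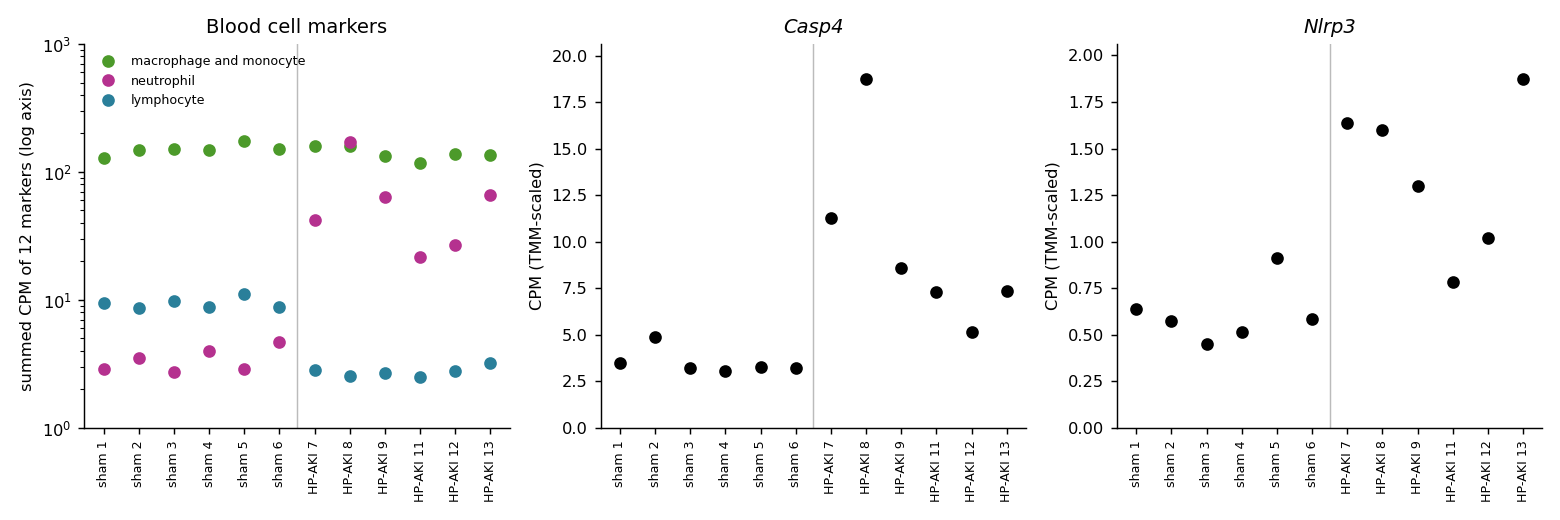
Left, summed CPM of 12 markers each of macrophages and monocytes, neutrophils and lymphocytes by library, on a log axis; centre and right, Casp4 and Nlrp3 in CPM by library. HP-AKI 8 has the highest neutrophil sum, 171.7 CPM, and the highest Casp4 level, 18.8 CPM, while HP-AKI 11 has the lowest HP-AKI values of the neutrophil sum and of Nlrp3.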

How the data were processed

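Whole-kidney RNA (TruSeq RNA Sample Prep Kit v2, per the labels' protocols, a kit that does not mark strand) was measured in 6 sham and 6 HP-AKI libraries. The deposited table holds raw counts per gene and, beside them, the authors' RPKM values for each library. GRCm38, featureCounts, TopHat2 2.1.0 and edgeR are listed in the submitters' processing notes without their roles, and the annotation, strand setting and mapping options are not given in the sources used here. The deposited RPKM were used for a check only: the library totals they imply were 2.98 to 3.47 times the summed counts. All 37 mitochondrial genes are listed at 0, so mitochondrial RNA gave no measure of quality. Levels per length are CPM per kilobase of the deposited gene length.

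The counts were fitted on the whole table with edgeR 4.0.16 (R 4.3.3): filterByExpr with the group, which kept 17470 genes, TMM factors, and the quasi-likelihood F-test of group, two-sided, with Benjamini-Hochberg adjustment over all genes kept. The SE is the log2 fold change over the square root of F, and the 95% intervals use the normal multiple of it. The fit was run on simulated data in which far fewer genes changed than were called here. That run does not test the scaling or the error rate under such broad change. Alternatives (20 in all) were DESeq2-type and upper-quartile factors, library size only, DESeq2 1.42.0, limma-voom (limma 3.58.1), no filter on low counts, 1 CPM in at least 6 samples, each of 12 libraries left out, and sham 1, sham 2 and HP-AKI 8 left out together. Groups share no sample numbers, so nothing was paired.

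The 10 genes and all lists were chosen with earlier results of these data known. The text names all 10, and from each of 7 related lists the 3 called genes with the largest change and the most abundant gene per kilobase, plus genes that make up a count of 5 or fewer. Of the listed genes, 1 was not matched and is not analysed here, and 1 other is not reported here. Gene bounds are those deposited, and 6 of the 10 equal GENCODE vM21. Shared stretches of 50 bases, shared exons and GC content came from GENCODE vM21, and promoter windows from RefSeq.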

Additional observations from a re-analysis of the deposited data

Results flagged for a closer look

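Each gene's 6 libraries were examined in both groups, 74 groups in all, and 4 held a library far from the others by Dixon's test, where chance flags about 1 in 20. Casp4 stood at 4.91 CPM in sham 2, against 3.05 to 3.50 CPM in the other sham libraries. HP-AKI 8 accounted for 2 of the others. Tnfaip3 stood at 52.1 CPM there, against 19.4 to 31.1 CPM in the other HP-AKI libraries. Gsdme stood at 5.27 CPM there, against 5.96 to 6.13 CPM. Gsdma stood at 0.0265 CPM in sham 3, which is its single sham count, and at 0 in the other sham libraries.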

How the results depend on the processing

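Ripk3, Mlkl, Casp4 and Casp8 kept their direction and their call in all 20 alternatives, over log2 ranges of 2.82 to 3.07, 2.82 to 3.04, 1.15 to 1.59 and 0.49 to 0.68. Nlrp3 did so in the 19 alternatives that tested it (1.03 to 1.29), and the filter of 1 CPM in 6 samples left it out. The count of members higher ran from 4 to 6. The count of members lower became 2 with sham 1, sham 2 and HP-AKI 8 left out together, and the cause was not tested. Without HP-AKI 8, Casp12 and Hmgb1 changed sign, and their values with 1 library left out ran from -0.0091 to 0.22 and from -0.013 to 0.12. Neither passed the test in any alternative. Over the related genes, 46 to 56 rose and 12 to 20 fell. Among the 10 genes Nlrp3 had the fewest counts, 17 to 61 per library. Of the related genes named, Gsdma, Mefv, Il1rn and Il1r2 were scarcer still in sham.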
